A study of Homo sapiens with 16 samples.

Results

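The comparison set 2 libraries of HCC70 cells with a short hairpin RNA against KLF5 beside 2 libraries of the same cells with the plko vector. HCC70 is an established cell line from a human breast carcinoma that lacks hormone receptors and HER2 (triple-negative) and has a basal-like expression profile. The KLF5 1 library carried construct TRCN0000013637 and the KLF5 2 library construct TRCN0000280340, so the spread between them includes the difference between hairpins. The plko 1 and plko 2 libraries carried constructs TRCN0000208001 and TRCN0000000000, so the controls too were not copies of 1 construct. Cells were grown in multiwell plates and infected with the constructs, and 3′ ends of transcripts were sequenced, per the labels. The series holds 16 libraries of this line, in 8 groups of 2 named for a target or a control, and asks which regulators influence the composition of basal-like tumour cell populations. Genes entered the comparison if the deposited normalized value was 5 or more in at least 2 of the 4 libraries, which kept 9769 of 11282 genes. The second-highest value of a gene was 5.58 or more in those kept and 4.98 or less in those left out. Of the genes kept, 170 met the minimum through the KLF5 libraries alone and 78 through the plko libraries alone.

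KLF5 is a zinc finger transcription factor of the Krüppel-like family, whose members, with the related SP factors, bind GC-rich and CACCC-type elements in promoters and enhancers. It is known for its role in the proliferating layers of epithelia, in gut, skin, bladder and airway, and in the breast it is expressed in basal-like tumours and cell lines. Genes reported elsewhere as KLF5 targets include FGFBP1, which encodes a secreted carrier protein that releases fibroblast growth factors from the extracellular matrix, and the cell cycle gene CCND1. A hairpin lowers a transcript through RNA interference, so the transcript of the target is the first check of the labels.

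The control was chosen from measured values: plko was taken as the matched control because the plko and KLF5 libraries had been seen to stand apart from the other 12 libraries. That choice used every gene of these libraries, so the likeness of plko and KLF5 is a description and supports nothing. Over 4476 genes, the library nearest to each KLF5 library after its partner was plko 2, with an SD of log2 differences of 0.511 for KLF5 1 and 0.495 for KLF5 2. The library nearest to plko 2 was FOXA1 1, at 0.424, so by this measure the plko and KLF5 libraries did not form a group of their own. They did share low values of KRT8, a keratin of simple epithelium, at 22.1 and 14.3 in plko and 13.5 and 12.8 in KLF5, against 177 to 256 in the 6 libraries with hairpins named shRFP, shLACZ and shLUC (the 6 hairpin controls). Its partner KRT18 was 17.6 and 20.4 in plko and 11.4 and 15.2 in KLF5, against 42.2 to 55.1. KRT7, another such keratin, did not follow, at 953 and 1198 in plko and 2074 and 1868 in KLF5, against 1393 to 1589. Epithelial identity was present in all 4 libraries, with EPCAM between 301 and 380 and KRT5 between 2085 and 2753. Depth differed, from 375713 reads in plko 1 to 690631 in KLF5 2, 1167504 in KLF5 1 and 1256160 in plko 2. The median tested gene had 15 reads in plko 1 and 50 in plko 2, so plko 1 is the least precise of the 4. The paired libraries of each group differed by more than counting noise, where the chi-square divided by its degrees of freedom was 4.45 for plko and 3.42 for KLF5, and all 4 were kept as samples. The labels do not say that they came from separate cultures, so p-values measure only the spread between these samples, which may be partly technical.

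The KLF5 transcript was lower with both hairpins, but the difference from plko did not pass the test. Its normalized value was 70.6 in plko 1 and 96.0 in plko 2, and 62.6 in KLF5 1 and 37.3 in KLF5 2. Both KLF5 libraries lay below both plko libraries, and KLF5 2 was the lowest of the 16. Relative to the plko mean, 75.1% of the transcript remained with the first hairpin and 44.8% with the second. On the log2(value + 1) scale, used for all differences here, while folds are ratios of mean deposited values, the difference of means was −0.76 ± 0.32 (SE, n = 2 and 2), with a 95% interval from −1.43 to −0.08 and a limma adjusted p of 0.229. An exact permutation test of 2 libraries against 2 cannot go below p = 0.333. Against the 6 hairpin controls, at 88.7 to 112, the difference was −1.01 with a limma adjusted p of 0.00101. The plko 1 value rests on 32 reads and the KLF5 2 value on 32.

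Of the KLF and SP family, 17 of 24 listed genes were tested and none was called by limma or edgeR (3 at an unadjusted limma p under 0.05). DESeq2 also called none, but of these genes it gave only KLF6 an adjusted p. The family had 6 positive and 11 negative differences and a median log2 difference of −0.26 against 0.0078 over all genes. KLF9 was 110.3 and 60.7 in plko and 45.5 and 50.2 in KLF5 (adjusted p = 0.225 in limma). SP1, a widely expressed activator, was 61.8 and 48.9 in plko and 34.1 and 31.5 in KLF5, with an adjusted p of 0.246. KLF16 moved the other way, at 26.5 and 44.0 in plko and 56.2 and 49.0 in KLF5 (adjusted p = 0.377). KLF4, a factor of differentiating epithelia, was 28.7 and 27.3 in plko and 29.1 and 33.8 in KLF5. Both KLF5 libraries were thus above both plko libraries, but by little (adjusted p = 0.864 in limma). KLF6 was 527 and 290.0 in plko and 399.5 and 323 in KLF5, so for this gene the groups overlapped.

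Across the transcriptome, 83 genes were higher and 34 lower with the KLF5 hairpins at a limma adjusted p under 0.05, which is 0.85% and 0.348% of the genes tested. Their differences ran from 1.03 to 3.74 in the higher genes, with a median of 1.40, and from 0.995 to 2.36 in size in the lower genes, with a median of 1.30. Abundant genes took most of the calls: 53 of the higher and 27 of the lower genes lay in the top quartile of genes by mean value, and 1 higher gene and no lower gene in the bottom quartile. The unadjusted p was under 0.05 in 1686 genes. By order alone, both KLF5 libraries were above both plko libraries in 2440 genes (25%) and below both in 2216 (22.7%). One called gene, HSF4, was tested through the KLF5 libraries alone. The count was 58 without KLF5 1, 61 without KLF5 2, 165 without plko 1 and 1507 without plko 2, where the lone library of a group is assumed to vary like the other group. Removing the trend of the log2 values on GC content left 3 calls, FGFBP1, H4C3 and YWHAZ, all lower, and quantile normalization left these 3 and VARS1.

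**Figure D1:**
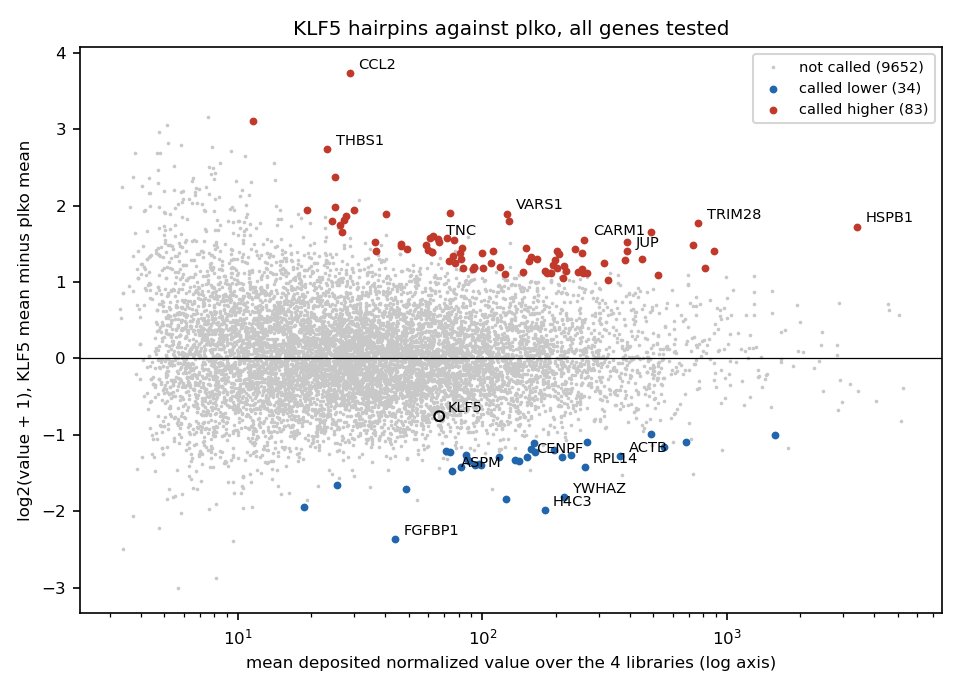
Difference in log2(value + 1) between the KLF5 mean and the plko mean (vertical axis) against the mean normalized value over the 4 libraries (log axis), with 1 point per gene tested. The 83 genes called higher are red, the 34 called lower are blue, and KLF5, circled, lies among the genes that were not called.

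FGFBP1 showed the largest fall among the genes called. Its value was 101 in plko 1 and 48.3 in plko 2, against 15.6 in KLF5 1 and 10.5 in KLF5 2. Neither KLF5 library reached the lowest of the other 14 libraries, and the 6 hairpin controls lay at 50.7 to 80.7. The mean was 5.73-fold lower with the KLF5 hairpins, and the difference was −2.36 ± 0.39 (SE) with a limma adjusted p of 0.00873. Among 12 tested genes of the list of reported KLF5 targets, FGFBP1 was the 1 that was called. Of the 12, 6 had an unadjusted limma p under 0.05, against 1686 of all 9769 genes. CCND1, which encodes cyclin D1, was 152 and 146 in plko and 79.6 and 77.0 in KLF5 (adjusted p = 0.0948). EGFR was 146 and 154 in plko and 80.3 and 82.8 in KLF5 (adjusted p = 0.108). MYC was 8.82 and 20.4 in plko and 34.8 and 26.8 in KLF5 (adjusted p = 0.176). The list had 7 positive and 5 negative differences, with a median of 0.05.

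The promoter of FGFBP1 is shown because that gene fell most, and the promoter of CARM1, a called gene that was higher with the hairpins (below), because its base composition is the opposite. Each is the 250 bases before the annotated start, 5′ to 3′ on the gene's strand, from RefSeq on GRCh38.p14, which is not the build of the deposited values. FGFBP1 lies at chr4:15938741-15938990 on the minus strand. For CARM1, the first of its 2 annotated starts gives chr19:10871303-10871552 on the plus strand. Capitals mark the letters CACCC and GGGCGG on either strand, the core letters of the elements that KLF and SP factors are known to bind.
FGFBP1: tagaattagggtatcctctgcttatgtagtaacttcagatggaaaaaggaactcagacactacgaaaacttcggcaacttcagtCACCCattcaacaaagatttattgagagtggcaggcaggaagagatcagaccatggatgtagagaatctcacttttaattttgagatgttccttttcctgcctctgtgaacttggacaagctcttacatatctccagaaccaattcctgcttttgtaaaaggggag
CARM1: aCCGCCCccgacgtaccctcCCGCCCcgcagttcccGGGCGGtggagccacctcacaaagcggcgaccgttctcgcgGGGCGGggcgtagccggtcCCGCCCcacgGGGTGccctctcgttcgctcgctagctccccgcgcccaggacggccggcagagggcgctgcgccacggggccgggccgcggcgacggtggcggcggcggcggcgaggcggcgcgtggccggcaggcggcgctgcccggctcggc
The FGFBP1 window was 40.8% G and C and held 1 match to CACCC and none to GGGCGG. The CARM1 window was 81.6% G and C and held 1 match to CACCC and 5 to GGGCGG. Over 11947 such windows of 8088 tested genes, 57.8% held CACCC and 64.1% held GGGCGG on either strand, so such matches are common. For genes called higher (100 windows of 69 genes) the shares were 67.0% and 74.0%, and for genes called lower (39 windows of 29 genes) they were 53.8% and 64.1%. The median GC content was 69.2% in the windows of the higher genes, 65.2% in those of the lower genes and 64.8% in all. These matches describe letters in a window and say nothing of where KLF5 was bound.

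The other genes among the 14 largest called falls included a histone, a signalling adaptor and metabolic genes. H4C3, which encodes histone H4 and belongs to the replication-dependent histone genes, was 256 and 321 in plko and 75.4 and 67.7 in KLF5. That is 4.03-fold lower (−1.99 ± 0.27, adjusted p = 0.00305), the smallest adjusted p of the comparison, and both KLF5 libraries were below all 14 others. The values count sequenced 3′ ends, and what share of the histone transcript these hold was not tested. YWHAZ, a 14-3-3 adaptor protein that binds phosphorylated signalling proteins, was 388 and 283 in plko and 73.2 and 119 in KLF5, a difference of −1.82 ± 0.29 (adjusted p = 0.00781). The 6 hairpin controls had YWHAZ at 276 to 406, a range that held both plko values. PPARA, a nuclear receptor of fatty acid oxidation, was 46.3 and 32.2 in plko and 14.2 and 9.33 in KLF5. FBP1, an enzyme of gluconeogenesis, was 117 and 121 in plko and 53.3 and 36.2 in KLF5. For both genes the KLF5 libraries also lay below the 6 hairpin controls. The membrane protein TMEM44 was 37.5 and 22.9 in plko and 4.98 and 9.33 in KLF5, and FAM20B, a kinase of glycosaminoglycan synthesis, was 92.7 and 58.2 in plko and 27.0 and 17.5 in KLF5. TSPAN1, a tetraspanin of epithelial membranes, was 256 and 149.9 in plko and 96.0 and 60.7 in KLF5.

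For 4 of these 14 falls the KLF5 libraries were not both below the 6 hairpin controls. Over all genes tested, both KLF5 libraries were below all 6 in 1324 (13.6%) and above all 6 in 1514 (15.5%). CP, which encodes the copper carrier ceruloplasmin, was 304 in plko 1 and 94.8 in plko 2, against 72.5 and 30.3 in KLF5 and 34.7 to 103 in the 6 hairpin controls. Here plko 1 alone stood high. ASPM, a spindle pole protein of dividing cells, was 128 and 94.8 in plko and 36.3 and 42.0 in KLF5, and 31.0 to 57.5 in the 6 hairpin controls, so KLF5 lay in their range and plko above it. MAP1B, a microtubule-binding protein, had the same arrangement, at 192 and 94.2 in plko, 54.7 and 47.8 in KLF5, and 46.0 to 91.0 in the 6 hairpin controls. PTMA, a small acidic nuclear protein, was 176 and 108 in plko, 74.6 and 36.2 in KLF5, and 50.3 to 122 in the 6 hairpin controls. A different arrangement was that of RPL14, a protein of the large ribosomal subunit, which lay below the 6 hairpin controls in both groups. It was 373 and 387 in plko, 114 and 174 in KLF5, and 790.3 to 1119 in the 6 hairpin controls. RPL14, PTMA, YWHAZ, ACTB and the histone genes have near-identical copies or pseudogenes in the genome, and how reads were counted is not given, so their values are uncertain to that extent.

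**Figure D2:**
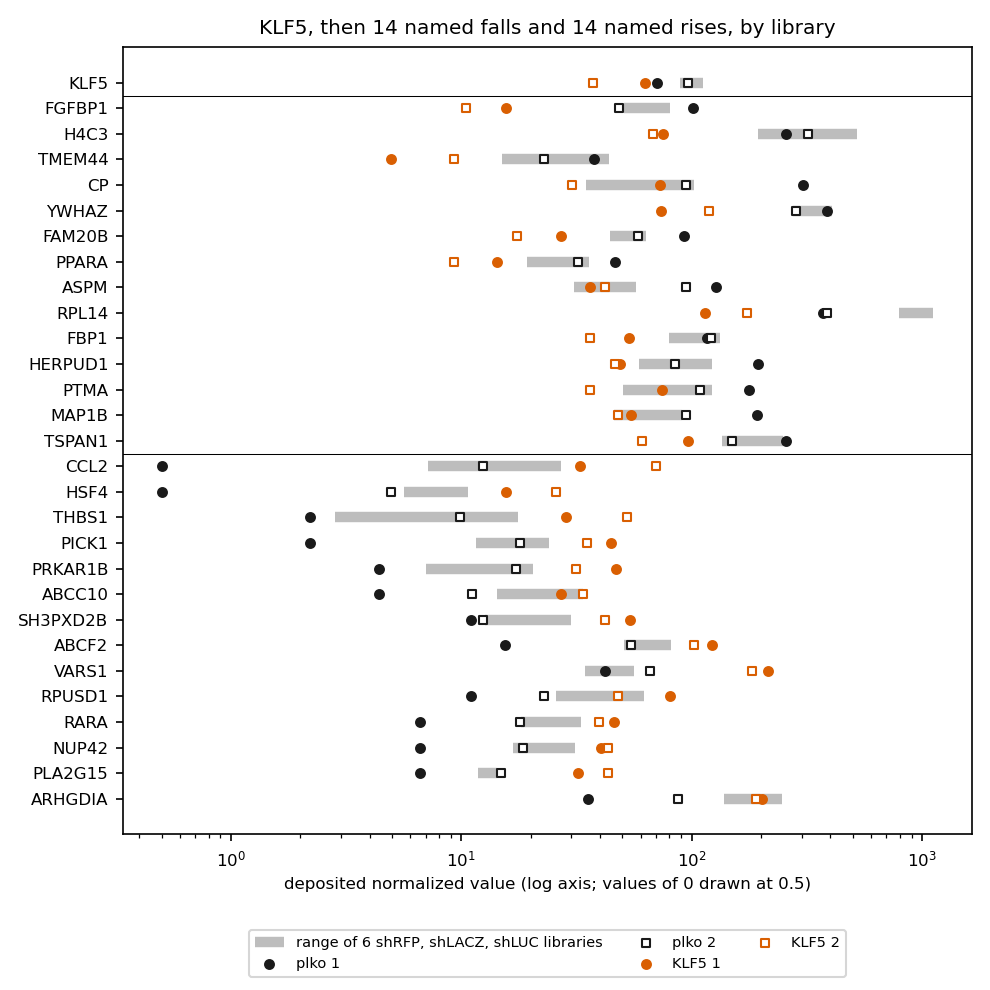
Deposited normalized values (log axis, values of 0 drawn at 0.5) of KLF5, of the 14 largest called falls and of the 14 largest called rises in plko 1 and 2 (black) and KLF5 1 and 2 (orange), with the range of the 6 hairpin controls as grey bars. In 10 of the 14 falls and 11 of the 14 rises both KLF5 libraries lie beyond the grey bar, against 13.6% and 15.5% of all genes, and in every one of the 14 rises plko 1 is the lowest of the 4 libraries.

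The 14 largest called rises included the genes of a chemokine (CCL2), a matrix protein (THBS1) and a tRNA synthetase (VARS1). CCL2, a chemokine that attracts monocytes, had no read in plko 1 and was 12.4 in plko 2, against 32.7 in KLF5 1 and 70.0 in KLF5 2. With 1 library at 0, its difference of 3.74 ± 0.76 (adjusted p = 0.0285) depends on the pseudocount, and a floor of 3 reads in plko 1 stands for a value of 6.62. The 6 hairpin controls had CCL2 at 7.19 to 27.1, below both KLF5 libraries. THBS1, which encodes the matrix protein thrombospondin 1, was 2.21 and 9.91 in plko and 28.4 and 52.5 in KLF5 (2.75 ± 0.54, adjusted p = 0.0271). SH3PXD2B, a scaffold of the podosomes with which cells degrade matrix, was 11 and 12.4 in plko and 54.0 and 42.0 in KLF5, so that the paired libraries of each group were close. VARS1, the valyl-tRNA synthetase, was 41.9 and 65.7 in plko and 215 and 183 in KLF5, a mean 3.70-fold higher (1.90 ± 0.29, adjusted p = 0.00781). Its values in the 6 hairpin controls were 34.3 to 56.3. RARA, a retinoic acid receptor, was 6.62 and 18 in plko and 46.2 and 39.7 in KLF5, above the 18.2 to 33.1 of the 6 hairpin controls.

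In 12 of these 14 rises plko 1 had under 10 reads, and plko 1 was below plko 2 in all 14. HSF4, a heat shock transcription factor, had 0 reads in plko 1 and 8 in plko 2, at values of 0 and 4.96, against 15.6 and 25.7 in KLF5. PICK1, a PDZ-domain protein of receptor trafficking, was 2.21 and 18 in plko and 44.8 and 35.0 in KLF5. PRKAR1B, a regulatory subunit of protein kinase A, was 4.41 and 17.3 in plko and 46.9 and 31.5 in KLF5. ABCC10, RPUSD1, NUP42, PLA2G15 and ABCF2 were also called higher, and in PLA2G15, NUP42 and ABCF2 both KLF5 libraries lay above the 6 hairpin controls. ARHGDIA was 35.3 and 87.4 in plko and 201 and 190.2 in KLF5, but 138 to 245 in the 6 hairpin controls, so there the plko libraries stood low. Over all 83 higher calls plko 1 was below plko 2 in 70, and over the 34 lower calls it was above plko 2 in 28. The median difference of the higher calls was 1.53 against plko 1 and 1.18 against plko 2, and of the lower calls −1.48 and −1.05. Of genes outside the naming rule, TRIM28, a corepressor chosen here after its values were seen, had the third smallest p-value in the comparison. It was 254 and 460.4 in plko and 1116 and 1226 in KLF5, against 466 to 683 in the 6 hairpin controls.

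Of the genes in 33 lists of pathways and cell type markers, 14 were called higher and 7 lower. The lists were chosen with earlier results of these data known, so these counts are a description only. No gene of the list of mitochondrially encoded genes had a row in the table. Replication-dependent histones had the lowest median among lists of at least 5 tested genes, at −0.68, with 10 of 11 members negative, although the list also holds H2AJ, which is made outside S phase. Beside H4C3, the 1 member called, H2BC5 was 44.1 and 34.1 in plko and 20.6 and 15.2 in KLF5 (adjusted p = 0.132). H1-2 was 48.5 and 35.3 in plko and 22 and 22.2 in KLF5 (adjusted p = 0.200). H2AC8 went the other way, at 2.21 and 6.82 in plko and 17.8 and 16.3 in KLF5 (adjusted p = 0.113). For this list as for H4C3, how far sequenced 3′ ends stand for all histone transcript was not tested.

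Mitosis genes had a median of −0.31, with 2 of 33 called lower and 14 at an unadjusted p under 0.05, against 1686 of all 9769 genes. Both KLF5 libraries were below both plko libraries in 16 and above in 5, against 22.7% and 25% of all genes tested. CENPF, a kinetochore protein, was 249 and 186 in plko and 76.8 and 99.2 in KLF5 (−1.29 ± 0.28, adjusted p = 0.0329). TOP2A, the topoisomerase of dividing cells, was 258 and 279 in plko and 161 and 161 in KLF5 (adjusted p = 0.144). Other members went the other way: UBE2C, an enzyme of the anaphase-promoting pathway, was 154 and 160.5 in plko and 248 and 324 in KLF5 (adjusted p = 0.105). CDC20, which activates the same pathway, was 101 and 115 in plko and 209.7 and 156 in KLF5 (adjusted p = 0.166). The median GC content of the longest transcript was 42.3% over the 21 members with negative differences, with a range from 35.3% to 50.4%, and 50.7% over the 12 with positive ones, from 38.8% to 57.9%. With the trend on GC content removed, the list median was −0.18 in place of −0.31, and neither ASPM nor CENPF was called. The part of GC content in these differences was not tested. Genes of G1/S and DNA replication had none called of 34 by limma and 1 by edgeR (RFC1), with 6 at an unadjusted p under 0.05. DESeq2 called none, but gave RFC1 no adjusted p. The 34 genes had 16 positive and 18 negative differences. E2F1 among them was 90.5 and 93.6 in plko and 197 and 165 in KLF5 (adjusted p = 0.0774), and RFC1, the large subunit of the clamp loader, was 92.7 and 50.2 in plko and 22.7 and 31.5 in KLF5 (adjusted p = 0.0647).

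Epithelial lists were mixed. KRT17, a keratin of basal and stressed epithelium, was 319.9 and 685 in plko and 1024 and 1509 in KLF5 (1.41 ± 0.31, adjusted p = 0.0341), and 579 to 1329 in the 6 hairpin controls. CD151, a tetraspanin of hemidesmosomes, was 141 and 136 in plko and 304 and 275 in KLF5 (1.06 ± 0.26, adjusted p = 0.0479), and above the 6 hairpin controls. These were the 2 called genes of 17 tested in the list of basal keratins and hemidesmosome genes. The integrin genes ITGB1 and ITGA6 of the same list had values in the other direction, of −1.02 and −1.01, with adjusted p-values of 0.113 and 0.119, and KRT5 differed by −0.03. JUP, which encodes plakoglobin of desmosomes and adherens junctions, was 163 and 276 in plko and 572 and 558 in KLF5, but 421 to 589 in the 6 hairpin controls. It was the 1 called gene of 21 in its list. Limma called none of 23 epithelial identity factors, 22 genes of simple and luminal epithelium or 17 genes of squamous differentiation, with 2, 4 and 3 at an unadjusted p under 0.05. In these lists edgeR called AQP3 and DESeq2 called KRT7. AQP3, a water and glycerol channel of keratinocytes, was 15.4 and 52.7 in plko and 9.95 and 7 in KLF5 (adjusted p = 0.0973).

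**Figure D3:**
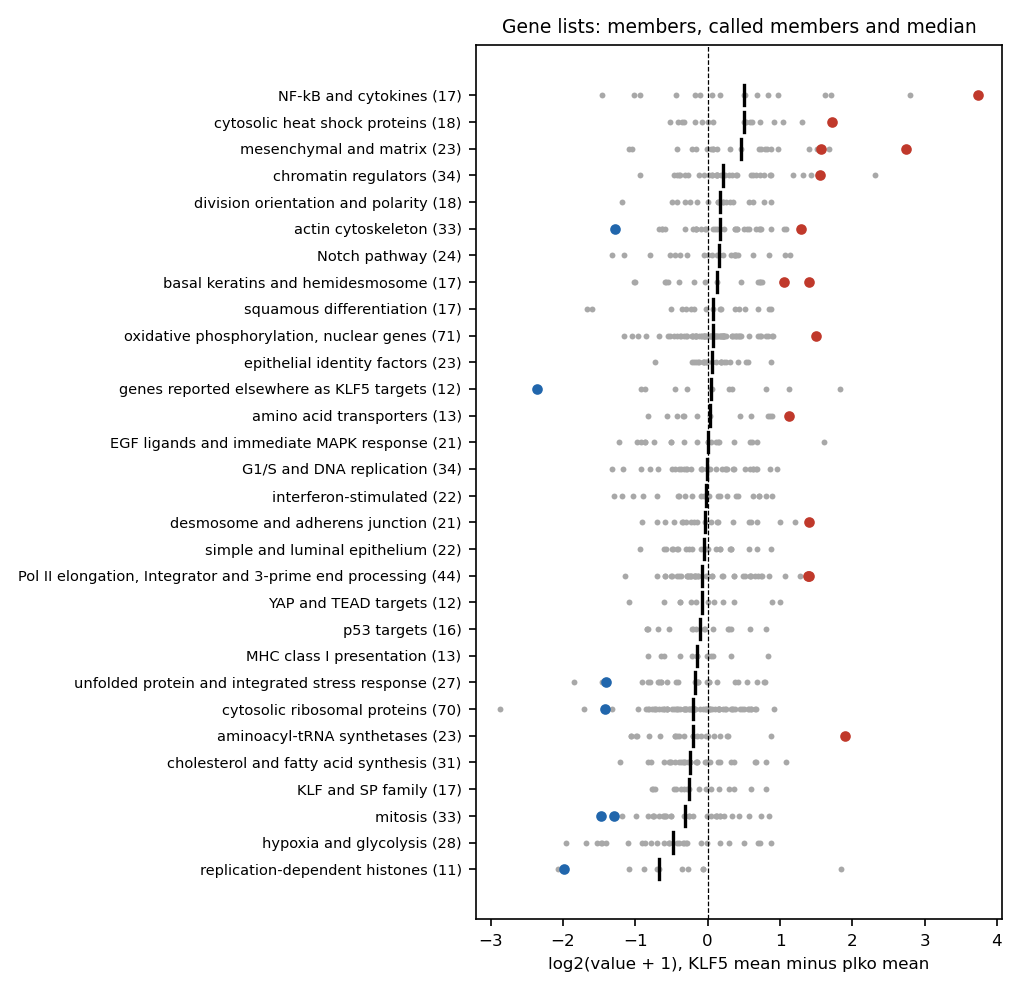
Difference in log2(value + 1) between the KLF5 mean and the plko mean for the members of each gene list with at least 5 tested genes (number tested in brackets), with members called higher in red, members called lower in blue and the list median as a black bar. The dashed line is the median of all genes, at 0.0078, and list medians run from −0.68 for histones to 0.51 for the NF-kB and cytokine list.

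Mesenchymal and matrix genes had a median of 0.47, with 17 of 23 positive and 2 called by limma. Beside THBS1, TNC, the matrix protein tenascin C, was 22.1 and 46.5 in plko and 87.4 and 107 in KLF5 (1.56 ± 0.35, adjusted p = 0.0349), above the 28.2 to 68.0 of the 6 hairpin controls. VIM, the intermediate filament vimentin, was 115 and 34.7 in plko and 157 and 211 in KLF5 (limma adjusted p = 0.0540), and was called by edgeR. Of 14 markers of fibroblasts and endothelium, 6 had a row in the table, and their summed value was 17.6 and 26 in plko and 46.9 and 54.8 in KLF5, against 15.6 to 35.9 in the 6 hairpin controls. Neither of the 2 that were tested was called: COL1A1, which made up most of the sum, was 11 and 13.6 in plko and 27.0 and 29.2 in KLF5 (adjusted p = 0.150), and ENG had an adjusted p of 0.395. The others, COL1A2, DCN, PDGFRA and ACTA2, stayed under 6 in all 4 libraries. Leukocyte markers, with 2 of 12 in the table, summed to 8.82 and 26 in plko and 18.5 and 23.3 in KLF5. Their part in the result was not tested. In bulk RNA, more cells of a kind and more transcript per cell cannot be told apart.

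The NF-kB and cytokine list had a median of 0.51, with CCL2 the 1 gene of 17 called by limma. CXCL8, a neutrophil chemokine, was 30.9 and 11.2 in plko and 53.3 and 66.5 in KLF5, with a limma adjusted p of 0.0503. Of this list edgeR called CCL2 and CXCL8. LIF, a cytokine of the IL-6 family, was 0 and 1.86 in plko and 9.95 and 11.7 in KLF5 (adjusted p = 0.110). TNFAIP3 and BIRC3, both induced by NF-kB, had differences of −1.46 and −0.93 and adjusted p-values of 0.349 and 0.146. Heat shock proteins had a median of 0.50, but 0.08 against the 6 hairpin controls and 0.23 with the trend on GC content removed. The list's median difference between plko 1 and plko 2 was −0.48. HSPB1, a small heat shock protein, was 838 and 2715 in plko and 4404 and 5663 in KLF5 (1.73 ± 0.36, adjusted p = 0.0329), the 1 gene of 18 called by limma. HSPB1 was also called by edgeR but not by DESeq2 (adjusted p = 0.286). Its plko libraries differed more than its KLF5 libraries, and the 6 hairpin controls lay at 1785 to 3455.

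In the actin list limma called 1 gene higher and 1 lower of 33, FLNA and ACTB, and DESeq2 also called PFN1. FLNA, the actin crosslinker filamin A, was 113 and 118 in plko and 291 and 274 in KLF5 (1.29 ± 0.26, adjusted p = 0.0285). ACTB, cytoplasmic actin, was 489.8 and 539.7 in plko and 161 and 275 in KLF5 (−1.28 ± 0.28, adjusted p = 0.0329), while the 6 hairpin controls had it at 1501 to 2225. The other cytoplasmic actin, ACTG1, was 483 and 584 in plko and 927 and 841 in KLF5 (adjusted p = 0.132). Both actin transcripts are GC-rich, at 56.0% for ACTB and 57.8% for ACTG1.

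Genes of gene expression machinery gave a few single calls. VARS1 was the 1 of 23 aminoacyl-tRNA synthetase genes called by limma, and the list median was −0.21 with 16 negative. SARS1 had a difference of −1.06 and CARS1 of −1.05, with limma adjusted p-values of 0.113 and 0.14. Of this list edgeR called VARS1 and SARS1. CARM1, an arginine methyltransferase that modifies histones and coactivators, was 86.0 and 191 in plko and 446 and 322 in KLF5 (1.56 ± 0.32, adjusted p = 0.0285), above the 108 to 158 of the 6 hairpin controls. It was the 1 called of 34 chromatin regulators, of which 25 had positive differences. CPSF1, a subunit of the complex that recognises the polyadenylation signal, was 39.7 and 84.9 in plko and 191 and 127 in KLF5 (adjusted p = 0.0466). SUPT6H, a histone chaperone of elongating RNA polymerase II, was 28.7 and 39.0 in plko and 75.4 and 106 in KLF5 (adjusted p = 0.0412). These were the 2 calls among 44 genes of elongation and 3′ end processing, with a list median of −0.08. RPL14 was the 1 of 70 ribosomal protein genes called by limma (median −0.20). There edgeR called 4, RPL14, RPL7A, RPL22 and RPS25, and DESeq2 called RPL14 and RPL22.

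Metabolic and stress lists gave 3 further calls. SLC7A5, a transporter of large neutral amino acids, was 189.7 and 125 in plko and 334 and 341 in KLF5 (adjusted p = 0.0466), and 127 to 349 in the 6 hairpin controls. ATP5F1D, a subunit of the mitochondrial ATP synthase, was 22.1 and 25.4 in plko and 72.5 and 65.3 in KLF5 (adjusted p = 0.0329), 1 of 71 nuclear genes of oxidative phosphorylation. HERPUD1, a protein of degradation from the endoplasmic reticulum, was 194 and 84.3 in plko and 49.1 and 46.7 in KLF5 (adjusted p = 0.0479), 1 of 27 genes of the unfolded protein and integrated stress response. In the lists of ATP5F1D and HERPUD1, edgeR also called SDHA, and ASNS and DDIT4. Hypoxia and glycolysis genes had none called of 28 by limma and 4 by edgeR (MB, ANKRD37, ADM and NDRG1). In this list 10 had an unadjusted p under 0.05 and 22 were negative, with a median of −0.48. DESeq2 called none, but gave MB no adjusted p. The list's median difference between plko 1 and plko 2 was 1.02, larger than that between KLF5 and plko. Limma called none among the tested genes of the lists for Notch (24), division orientation and polarity (18), interferon (22), MHC class I presentation (13), p53 (16), YAP and TEAD (12), EGF ligands and the MAPK response (21) and cholesterol and fatty acid synthesis (31). In that order 6, 3, 5, 2, 1, 1, 6 and 5 of them had an unadjusted p under 0.05. Of these genes edgeR called SAMD9, SAMD9L and ACAT2, all lower, and DESeq2 called ACAT2. HES4, a Notch target, was 24.3 and 33.5 in plko and 71.8 and 57.2 in KLF5 (adjusted p = 0.0843), and AURKA, a spindle kinase, was 90.5 and 68.8 in plko and 24.2 and 47.8 in KLF5 (adjusted p = 0.0866).

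The hairpins were compared through 2 pairs of libraries that share none: KLF5 1 minus plko 1, and KLF5 2 minus plko 2. Across 9769 genes, which are not independent replicates, the differences had the same sign in 62.3%, with a Pearson r of 0.33 and a Spearman correlation of 0.34. From the bottom to the top quartile of genes by mean value, r was 0.23, 0.32, 0.41 and 0.50. The 100 genes most raised in the first pair among those at 20 or more in at least 2 libraries had a median of 2.11 there and 0.68 in the second pair, where 92 were positive. The 100 most lowered had medians of −1.74 and −0.41, and 80 were negative in the second pair. Of all 6535 genes at that minimum, 4228 had the same sign in both pairs. Both sets of 100 were chosen on the first pair, and the second pair gave most of them a smaller difference in the same direction. Each pair subtracts a plko library, and both plko libraries had a negative relation to GC content (below). The part of the controls in the agreement of the pairs was not tested. The called genes were chosen on these same libraries, so their likeness with each hairpin is a description only. Their median differences from the plko mean were 1.43 with the first hairpin and 1.28 with the second in the higher genes, and −1.31 and −1.35 in the lower genes.

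**Figure D4:**
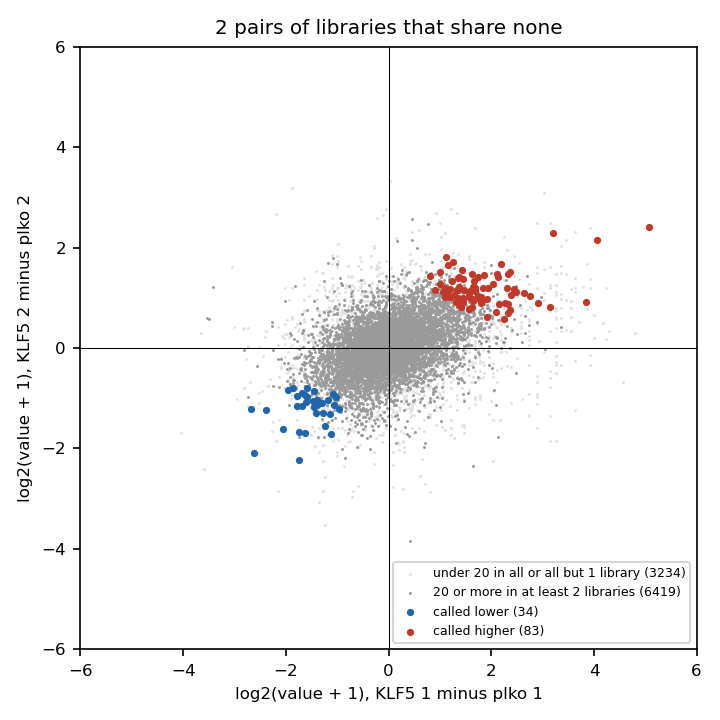
Difference in log2(value + 1) of KLF5 1 from plko 1 (horizontal) and of KLF5 2 from plko 2 (vertical), with 1 point per gene tested and called genes in colour. All genes together have a Pearson r of 0.33, with a wider cloud of low genes in light grey.

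The difference varied with the base composition of the transcript. The median GC content of the longest annotated transcript was 62.2% in the genes called higher, 44.7% in those called lower and 47.7% in all genes tested. The decile of genes with the highest GC content held 50 of the 83 higher calls and no lower call, and its median difference was 0.54. In the 4 deciles with the lowest GC content the medians lay between −0.16 and −0.11. Across 9765 genes the Spearman correlation of the difference with GC content was 0.32. The same relation was −0.03 for the difference between plko 1 and plko 2, and −0.06 for KLF5 against the 6 hairpin controls. Against those controls the decile medians were high at both ends, at 0.22 in the lowest decile, −0.08 in decile 7 and 0.25 in the highest. Relative to the mean of all 16 libraries, the log2 value had a Spearman correlation with GC content of −0.31 in plko 1 and −0.44 in plko 2, and of 0.04 and −0.03 in KLF5 1 and 2, while the other 12 libraries lay between −0.23 and 0.28. The plko libraries thus had the most negative values of the series and the KLF5 libraries values near 0. With the trend removed, all 117 called genes kept their sign, and the median was 0.95 in place of 1.40 for the higher genes and −1.26 in place of −1.30 for the lower genes.

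**Figure D5:**
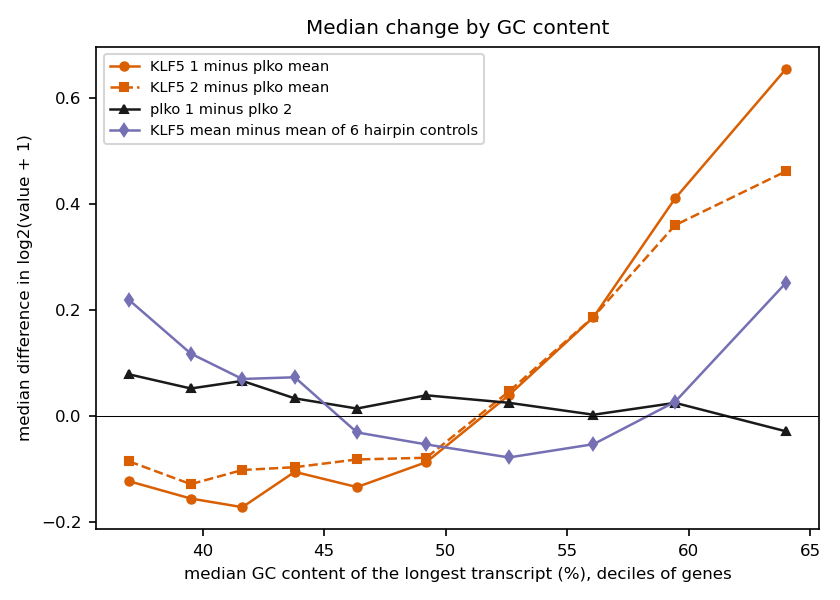
Median difference in log2(value + 1) in deciles of the tested genes ordered by GC content of the longest transcript (horizontal axis, median of each decile in percent). Both KLF5 libraries rise above the plko mean in the GC-rich deciles, to 0.66 and 0.46, while plko 1 minus plko 2 stays between −0.03 and 0.08.

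The called genes were set beside the 6 hairpin controls, a comparison that shares the KLF5 libraries. There 730 genes were called higher (7.47%) and 895 lower (9.16%). Of the 83 genes higher than plko, both KLF5 libraries were above all 6 hairpin controls in 71 (15.5% of all genes), and 67 were also called there. Of the 34 lower genes, both were below all 6 in 19 (13.6% of all genes), and 20 were called there, and none of the 117 was called in the opposite direction. Beyond all 14 other libraries of the series lay 63 of the 83 higher and 15 of the 34 lower calls. Every call already lay beyond both plko libraries, which are among the 14. Of all genes tested, 2440 lay above and 2216 below both plko libraries. Of these, 666 and 522 lay beyond all 14 (6.82% and 5.34% of all genes tested). FGFBP1 differed by −2.19 from the 6 hairpin controls and by −2.36 from plko. KRT17, JUP, SLC7A5, ARHGDIA, ABCC10 and RPUSD1 among the higher calls, and ASPM, CP, MAP1B and PTMA among the lower calls, were those named above whose KLF5 values fell within the range of the 6 hairpin controls or crossed it.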

How the data were processed

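Transcript 3′ ends from HCC70 cells were barcoded, amplified by in vitro transcription as in CEL-Seq and sequenced, per the labels' protocols. For 11282 genes the authors deposited a signal that the title of their table calls DESeq2-normalized. The submitters' processing notes name GRCh37 as the genome build. How reads were aligned and counted, and whether molecular identifiers were used, is not given. Deposited values were whole multiples of 1 read in 100% of cases within 0.05 reads, so reads were recovered. Of its columns, 2 match no sample and were not used. Symbols were found for 11259 genes.

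The 4 libraries were fitted with limma 3.58.1 (R 4.3.3), with a mean-variance trend on log2(value + 1). Benjamini-Hochberg adjustment ran over all 9769 genes, with a threshold of 0.05 and 2-sided tests. The logarithm with a pseudocount understates the change of low genes. Precision is set by depth, from 375713 to 1256160 reads, and floors of 3 reads cover counting error only. Alternatives used edgeR 4.0.16 and DESeq2 1.42.0 on recovered reads. GC content came from the longest transcript of another build (GRCh38).

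The members and lists were chosen with earlier results of these data known. Named genes were KLF5, the 14 largest rises and 14 largest falls among called genes without overlap and with a mean of 20 or more in the higher group, up to 4 called members of each list (otherwise up to 2 by smallest p, as values), and the KLF and SP family.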

Additional observations from a re-analysis of the deposited data

How the results depend on the processing

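With 117 calls in the comparison as reported, of which 21 were list genes, a pseudocount of 0.5 gave 72 calls and one of 5 gave 197. A minimum of 20 gave 184, quantile normalization 4 (3 list genes), edgeR 229 (39), the spread of all 16 libraries 285 (35), the 6 hairpin controls 1625 (232) and all 8 controls 577 (100). DESeq2 gave 100 calls and no adjusted p for 7765 genes. TMM scaling gave 80 calls and no filter 91. Removing the GC trend, a choice made after seeing the data, left 3 calls (2 list genes). The share of higher calls was 70.9% as reported, 59.4% by edgeR, 60.0% by DESeq2 and 25% after quantile normalization. Without each library in turn the calls ran from 58 to 1507 and the list genes from 17 to 191. All 117 kept their sign in every setting run on the 4 libraries, and 115 did against the 6 hairpin controls. H4C3 and YWHAZ were called in each of 17 alternatives, and FGFBP1 in each of the 16 that gave it an adjusted p. The 41 named genes that were called kept their sign throughout, while 13 of the 46 named as values changed sign in at least 1 alternative. The KLF5 transcript was called against the 6 hairpin controls (−1.01) and against all 8 controls (−0.94), and in none of the other alternatives that gave it an adjusted p.

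The fit with the replicate number as a block gave 424 calls (65 list genes), and 1710 against the 6 hairpin controls. The labels name nothing that same-numbered libraries share, and the paired deviations correlated at 0.047, so the numbers were not taken as pairs. Against the 6 hairpin controls, calls ran from 749 to 947 without one KLF5 library. The r between the hairpin pairs was 0.29 with the pairs crossed, 0.37 with a pseudocount of 5, 0.26 with no filter, 0.43 at a minimum of 20 and 0.27 with the GC trend removed. Depth limits plko 1 most, where 17.7% of the genes tested had under 5 reads, against 1.32% in plko 2.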
